A study of Mus musculus with 24 samples.

Results

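The mitochondrial genome of the mouse was described here through the 13 genes whose names begin with MT and a dot in the deposited count table, of 35727 genes in all. They were chosen by name alone, and all 13 are the protein-coding genes of the mitochondrial chromosome. The 22 tRNA genes and 2 rRNA genes of that chromosome are not analysed here. Bulk RNA-seq of poly-A RNA was made from inguinal white adipose tissue (iWAT), the fat pad under the skin of the groin, of male mice aged 18 to 22 weeks. The mice were wild type (WT) or carried the deletion called AdL3KO (KO), which per the series' title and design removes LPCAT3, an enzyme that attaches polyunsaturated fatty acids to phospholipids. What construct or Cre line lies behind it is not given in the sources used here. All mice ate high-fat diets with 60% of calories from fat, rich in saturated fatty acids (SFA), in omega-6 (n6) or in omega-3 fatty acids (n3), which gave 6 groups (WT and KO on each diet) of 4 libraries, 24 in all. The title speaks of mature adipocytes while the protocols describe no isolation of cells, so the libraries are read as whole tissue.

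The mitochondrial chromosome is a small circle that lies in many copies in each cell. Its protein-coding genes all encode membrane subunits of the oxidative phosphorylation system: complex I, which takes electrons from NADH, complex III, complex IV, which passes them to oxygen, and the ATP synthase. It is transcribed from each strand into long RNAs that are cut into shorter pieces, and many of the messages are given poly-A tails. Every subunit of complex II and all proteins that copy, transcribe and process the mitochondrial genome are encoded in the nucleus. In fat cells, mitochondria supply the energy and carbon for storing and breaking down fat, and in brown and beige fat cells they also make heat.

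The 13 genes lie on chrM of GRCm38 (mm10), with coordinates from the GENCODE M21 annotation, 12 on the plus strand and mt-Nd6 alone on the minus strand. The reading frames are packed so closely that mt-Atp8 and mt-Atp6 share 43 bases, mt-Nd4l and mt-Nd4 share 7, mt-Atp6 and mt-Co3 share 1, and mt-Nd5 and mt-Nd6 share 14 on opposite strands. The shared stretch of mt-Atp8 and mt-Atp6 (chrM:7927-7969, plus strand) is shown because reads within it belong to both genes. It begins with the start codon of mt-Atp6 and ends with the stop codon of mt-Atp8.

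mt-Atp8 and mt-Atp6 overlap: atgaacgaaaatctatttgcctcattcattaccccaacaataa

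The nuclear genome holds old insertions of mitochondrial DNA, and 11 annotated pseudogenes in the count table align to a member at 95% identity or more over at least 100 bases. The closest lie side by side on the minus strand of chr1 within chr1:24611535-24616197, and 4 of these took most of the reads of their mitochondrial gene in the deposited table. The 3′ ends of mt-Co2 (chrM:7652-7696), mt-Atp6 (chrM:8563-8607) and mt-Co3 (chrM:9346-9390) are shown with the ends of their chr1 copies Gm28661 (chr1:24614885-24614926), Gm10925 (chr1:24613974-24614015) and Gm28437 (chr1:24613189-24613232). For mt-Nd3 the 5′ start is shown (chrM:9459-9481) with that of Gm28438 (chr1:24613097-24613119). The sequences are those of the GENCODE M21 transcripts, 5′ to 3′, and capitals mark the only bases in which each pair differs within the stretch shown.

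mt-Co2: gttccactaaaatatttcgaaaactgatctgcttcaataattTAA

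Gm28661: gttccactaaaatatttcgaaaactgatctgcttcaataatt

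mt-Atp6: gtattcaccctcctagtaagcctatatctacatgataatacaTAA

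Gm10925: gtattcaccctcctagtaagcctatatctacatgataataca

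mt-Co3: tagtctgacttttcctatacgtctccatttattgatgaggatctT

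Gm28437: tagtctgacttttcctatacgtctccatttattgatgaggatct

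mt-Nd3: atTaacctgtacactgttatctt

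Gm28438: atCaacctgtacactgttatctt

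The copies of mt-Co2 and mt-Atp6 match 681 and 678 bases of their genes without a mismatch and stop before the last 3 bases, and that of mt-Co3 matches 783 bases and lacks only the last one. The copy of mt-Nd3 differs from its gene at T3C (position counted from 1 at the 5′ end of the gene) and ends 3 bases short. Gm10222 likewise matches mt-Nd4l over 294 bases. A read from any of these messages that does not reach the differing bases can be assigned to either. Single values for mt-Co2, mt-Atp6, mt-Co3, mt-Nd3 and mt-Nd4l in the deposited table are therefore uncertain, and each is given below as deposited and with its copies added.

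Salmon, the program that assigned the reads, placed 98.2% ± 0.450 (SD, n = 24) of the reads of mt-Co2 and its copy on Gm28661. The share was 95.5% for Gm10925 beside mt-Atp6, 90.8% for Gm28438 beside mt-Nd3, 90.7% for Gm28437 beside mt-Co3 and 32.6% for Gm10222 beside mt-Nd4l. Each of the other 6 copies held under 1% of the reads of its gene. All 11 copies together made up a like part of the mitochondrial reads in every group, from 22.1% in KO on n6 to 23.3% in WT on SFA. The difference between genotypes in this part, averaged over the diets, was -0.291 percentage points (two-sided exact permutation test within diets, p = 0.109). On n6 alone it was -0.869 points without overlap (exact permutation p = 0.0286, adjusted p = 0.0857).

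**Figure D1:**
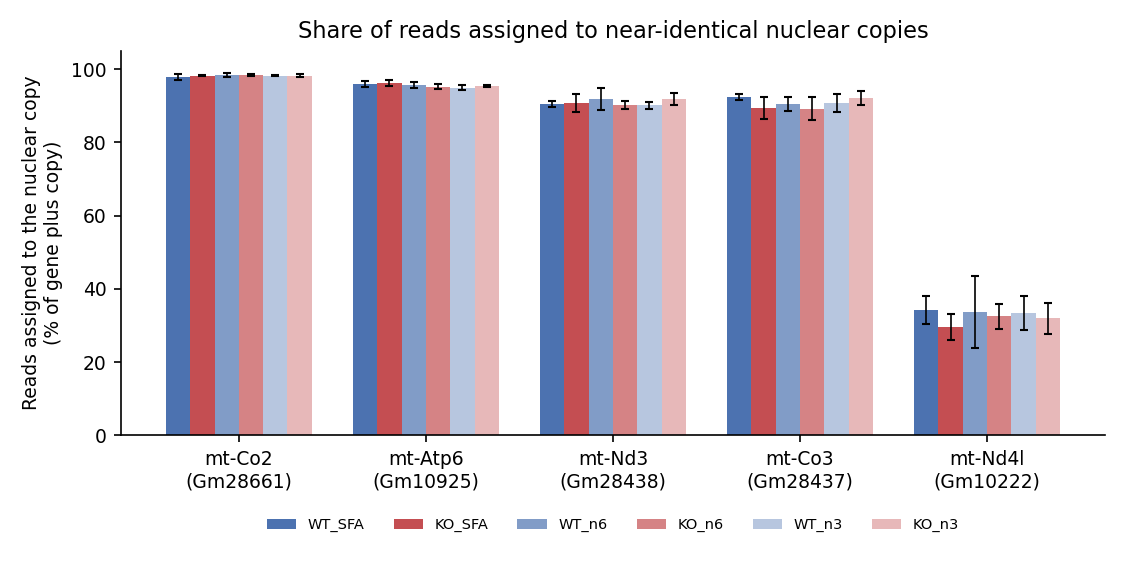
Share of the reads of a mitochondrial gene and its near-identical nuclear copies that the deposited counts place on the copies, in percent, for the 5 genes with a copy above 1%. Bars are the means of the 4 libraries of each of the 6 groups, with their SD. For mt-Co2 the mean over the 24 libraries is 98.2% and for mt-Nd4l it is 32.6%.

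Library totals ran from 43599424 to 62128983 estimated counts, with a median of 50220046, and 15259 genes had enough counts to be tested. The labels do not say whether each library came from a separate animal, so p-values measure the spread between these libraries. Lpcat3, read first as a check of the genotype labels, stood at 100.2 to 132 CPM (counts of a gene per library, scaled to a common library total) in WT and 64.6 to 74.9 in KO on SFA, 72.4 to 80.9 and 47.4 to 50.3 on n6, then 117 to 126 and 49.3 to 57.9 on n3, so the genotypes did not overlap on any diet, while KO on SFA overlapped with WT on n6. All 10 fat cell markers were present in every library, among them Adipoq, the fat cell hormone adiponectin, at 1181 to 2190.3 CPM. Replicate 1 of KO on n6 stood apart with a summed 430.0 CPM of 14 skeletal muscle markers, against 13.6 to 103 in the other libraries. Replicate 3 of WT on SFA and replicate 2 of KO on n6 held 49.3 and 53.5 CPM of 9 B cell markers, against 4.42 to 36 in the others. Marker levels are on the same scale. Results were also computed without these 3 libraries. Within a diet the libraries share a letter in their description, so diet cannot be told apart from whatever that letter marks.

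In KO tissue the mitochondrial genes took a larger part of all counts than in WT tissue on each of the 3 diets, and among WT groups the part was smallest on n6. On SFA the 13 genes held 3.84, 4.45, 4.52 and 4.84% of the estimated counts in the 4 WT libraries and 6.31, 6.13, 6.67 and 6.06% in the 4 KO libraries. On n6 they held 2.96, 3.23, 3.22 and 3.55% in WT and 5.69, 5.98, 5.79 and 6.04% in KO. On n3 they held 4.43, 4.26, 4.56 and 4.77% in WT and 6.34, 6.41, 7.001 and 5.91% in KO. Every KO library thus lay above every WT library, on its own diet and on the other two, and the lowest KO value and the highest WT value of the study were 5.69% and 4.84%.

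The means were 4.41 ± 0.417% (SD, n = 4) in WT and 6.29 ± 0.272% in KO on SFA, a difference of 1.88 percentage points or 1.43-fold. On n6 they were 3.24 ± 0.243% and 5.87 ± 0.161%, a difference of 2.63 points or 1.81-fold. On n3 they were 4.50 ± 0.216% and 6.42 ± 0.448%, a difference of 1.91 points or 1.42-fold. Each of these differences had the smallest p that 4 libraries against 4 can give (two-sided exact permutation test, p = 0.0286, adjusted p = 0.0429 over 9 comparisons). Averaged over the diets the difference was 2.14 points, with the exact permutation p within diets at 5.83e-06, the smallest that the 343000 arrangements allow. Without the 3 libraries high in muscle or B cell markers it was 2.17 points (exact permutation p = 2.72e-05). In whole tissue, more of the cells that are rich in these RNAs and more of these RNAs per cell cannot be told apart.

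**Figure D2:**
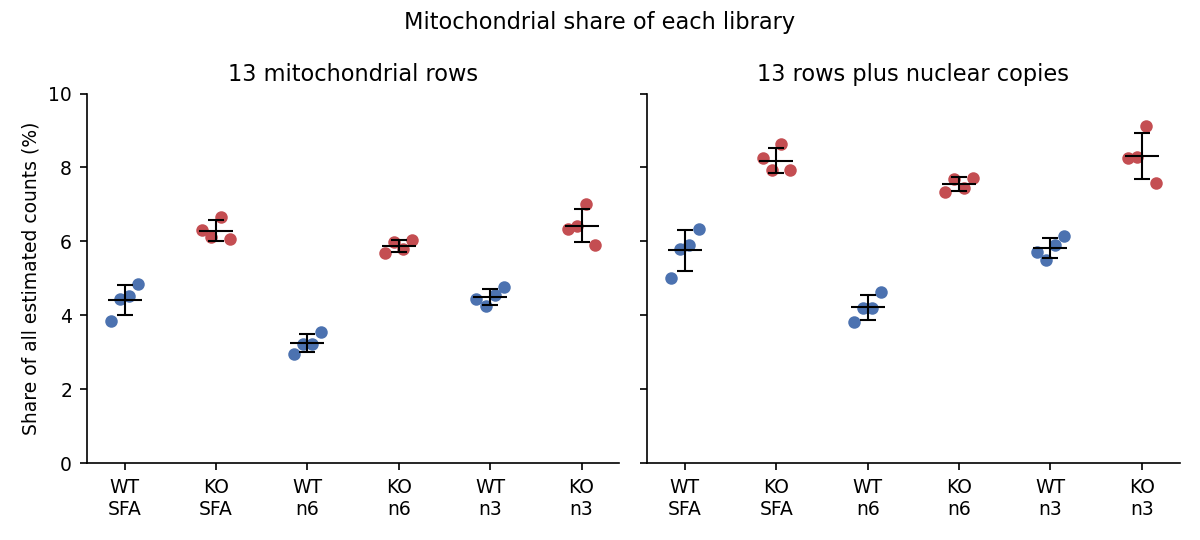
Share of all estimated counts in the 13 mitochondrial genes, in percent, for the 6 genotype and diet groups. Points are the 4 libraries of a group, bars their mean and SD, from 3.24% in WT on n6 to 6.42% in KO on n3, and all KO libraries lie above all WT libraries.

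Adding the nuclear copies raised the level of the share and left its pattern in place: 5.75% in WT and 8.18% in KO on SFA, 4.21% and 7.54% on n6, then 5.82% and 8.31% on n3. In TPM, which corrects each gene for its length, the same genes and copies made up 15.98% and 22.8% of all transcripts on SFA, 12.1% and 20.8% on n6, then 16.1% and 22.2% on n3. Set against nuclear counts without the 100 most abundant nuclear genes, there were 6.58 mitochondrial counts per 100 nuclear ones in WT and 10.1 in KO on SFA, 4.53 and 8.97 on n6, then 6.53 and 10.1 on n3. The genotypes did not overlap on any diet on any of these 3 scales.

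TPM values are forced to a fixed sum in each library, so a larger mitochondrial part lowers the TPM of all other genes by arithmetic. On log2(TPM + 1), the median difference between KO and WT over all tested genes, averaged over diets, was -0.17, and 13.1% of the genes called by limma were higher in KO. In the edgeR test on counts with TMM scaling the median was -0.01 and 48.3% of called genes were higher. With the mitochondrial genes and their copies taken out and TPM rescaled to the remaining genes, the limma values became -0.06 and 31.4%. The median of the 13 genes stood above that of all genes by 0.79 in the count test and by 0.75 on log2(TPM + 1). Differences below are log2 fold changes from the count test, and levels of single genes are CPM with TMM scaling.

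Gene by gene, the rise in KO ran across all 4 enzyme complexes. As deposited, 10 of the 13 genes were higher in KO on SFA, 13 on n6 and 10 on n3 (edgeR quasi-likelihood test, adjusted p under 0.05 over all genes), and none was lower. Among all tested genes the share called higher was 20% on SFA, 21% on n6 and 20.1% on n3. The median log2 difference of the 13 genes was 0.64, 1.02 and 0.66 on these diets, where the medians over all tested genes were -0.0035, 0.00066 and -0.028. In the average over the diets all 13 were higher, beside 27.8% of all tested genes called higher and 29.8% called lower. With the nuclear copies added, 12, 13 and 13 of 13 were called higher, beside 19.8%, 21.4% and 18.8% of all genes tested in that table, and the single gene not called was mt-Nd6 on SFA.

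Counted by library rather than by test, as deposited 9 of 13 genes had all 4 KO libraries above all 4 WT libraries on SFA, 13 on n6 and 11 on n3. Over all tested genes, groups that did not overlap in either direction made up 36.1%, 39.1% and 32.7%. With copies added the members' counts were 12, 13 and 13.

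**Figure D3:**
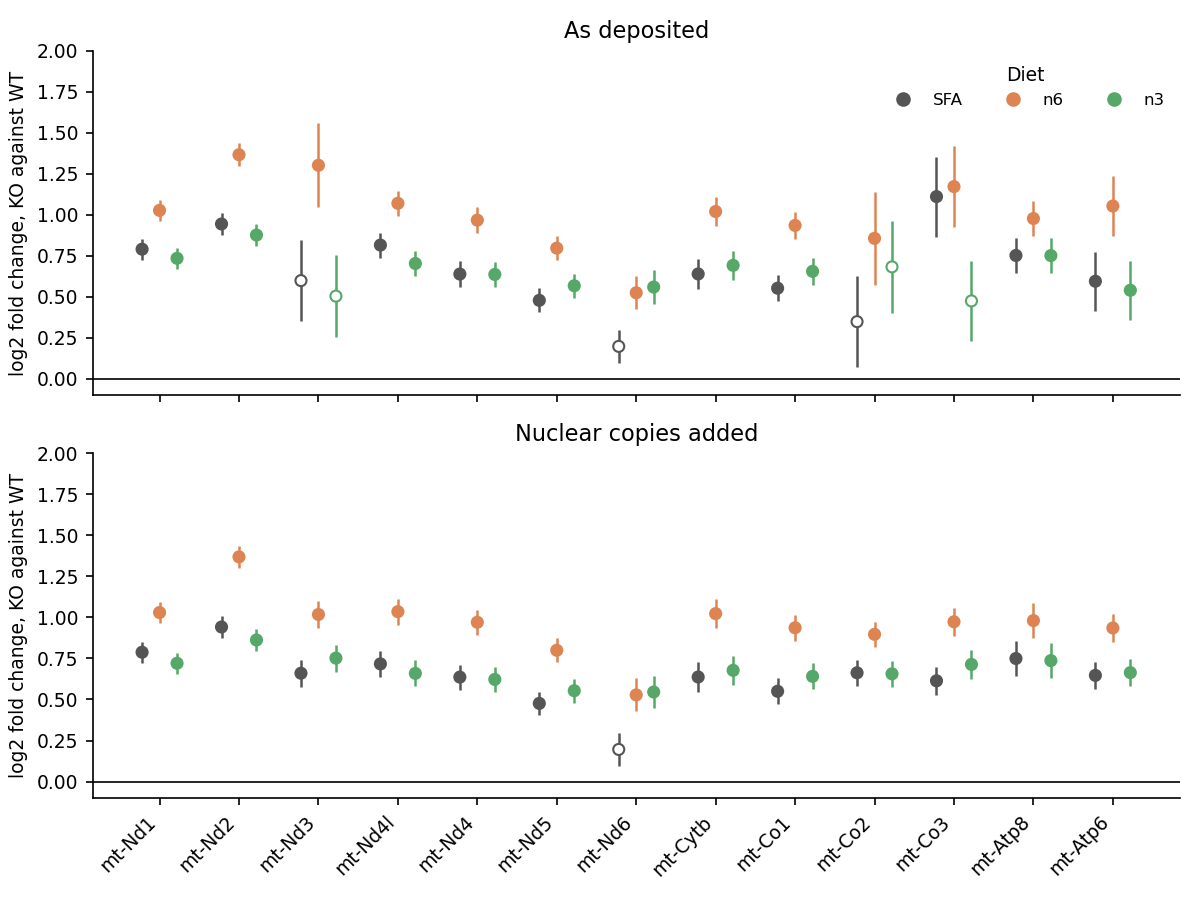
Log2 difference between KO and WT for each mitochondrial gene on SFA, n6 and n3, as deposited (upper panel) and with the near-identical nuclear copies added (lower panel). Points are edgeR estimates, bars their SE, and open points have an adjusted p of 0.05 or more. mt-Co2 moves from 0.35 to 0.66 on SFA when its copy is added, and mt-Nd6 on SFA is the only open point in the lower panel.

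Complex I, with 7 mitochondrial subunits, held the gene with the widest rise on each diet once copies were added. mt-Nd2 (chrM:3914-4951, plus strand) encodes one of the antiporter-like subunits that move protons across the membrane. On SFA it stood at 3647, 4432, 4496 and 4761 CPM in WT and 8571, 8082, 8884 and 7820.2 in KO. On n6 it stood at 2579, 2750.1, 2828 and 2847 CPM in WT and 7013, 6844, 7040.1 and 7472 in KO. On n3 it stood at 4444, 4262, 4588 and 4787 CPM in WT and 8274, 8438, 8952 and 7537 in KO. The genotypes were far apart on every diet, and the 4 WT libraries on n6 were the lowest of the study. The log2 difference was 0.94 (SE 0.07) on SFA, 1.37 (SE 0.07) on n6 and 0.88 (SE 0.07) on n3 (edgeR, adjusted p = 2.63e-10, 4.18e-13 and 1.81e-09).

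mt-Nd1 (chrM:2751-3707), which helps form the channel in which ubiquinone binds, ranged over 3646 to 4484 CPM in WT and 6761 to 7595 in KO on SFA, 2715 to 2982 and 5600.0 to 6061 on n6, then 3989 to 4377 and 6231 to 7729 on n3. It rose by 0.79, 1.03 and 0.74 on the log2 scale. mt-Nd4 (chrM:10167-11544), another antiporter-like subunit, ranged over 5528 to 7044 CPM in WT and 9398 to 10777 in KO on SFA, 3882 to 4778 and 7965 to 8604 on n6, then 5937 to 6596 and 8429 to 10931 on n3. Its rise was 0.64, 0.97 and 0.64, and neither gene had overlapping genotypes on any diet (edgeR, largest adjusted p of the 2 genes 8.37e-07).

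mt-Nd5 (chrM:11742-13565), the third antiporter-like subunit and the longest mitochondrial reading frame, rose less. On SFA its 4 WT libraries had 3923, 4427, 4331 and 4697 CPM and its 4 KO libraries 6028, 5755, 6519 and 5917. On n6 the values were 2858, 3319, 3125 and 3585 CPM in WT and 5321, 5673, 5721 and 5677 in KO. On n3 they were 4127, 3967, 4316 and 4586 CPM in WT and 6288, 6411, 7007 and 5487 in KO. KO lay above WT in every library of each diet. The log2 difference was 0.48 (SE 0.07) on SFA, 0.80 (SE 0.07) on n6 and 0.57 (SE 0.07) on n3 (edgeR, adjusted p = 1.60e-05, 9.23e-09 and 2.25e-06).

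mt-Nd6 (chrM:13552-14070) encodes a small membrane subunit and is the only protein gene on the minus strand. On SFA it had 107, 141, 140.0 and 155 CPM in WT and 155, 146, 165 and 156 in KO. On n6 it had 82.8, 102, 87.9 and 99.5 CPM in WT and 125, 143, 134 and 135 in KO. On n3 it had 99.5, 106, 117 and 129.6 CPM in WT and 171, 163, 189 and 143 in KO. The genotypes overlapped on SFA, where replicate 1 of WT was low and replicate 4 of WT lay among the KO libraries, and did not overlap on n6 or n3. The log2 difference was 0.20 (SE 0.10) on SFA, 0.53 (SE 0.10) on n6 and 0.56 (SE 0.10) on n3 (edgeR, adjusted p = 0.125, 2.32e-04 and 1.61e-04). Without replicate 4 of WT the SFA value was 0.27 (edgeR, adjusted p = 0.0491). Whether reads were counted by strand is not given in the sources used here, so reads of mt-Nd6 cannot be told apart from antisense RNA over the same bases, and the end that mt-Nd6 and mt-Nd5 share is 14 bases long. How fully the poly-A libraries captured mt-Nd6 beside the other genes was not tested.

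The 2 remaining small subunits of complex I are affected by nuclear copies. mt-Nd3 (chrM:9459-9806) had 35.3, 48.3, 49.8 and 47.4 CPM in WT and 43.1, 70.6, 88.4 and 71.5 in KO on SFA as deposited, with 1 KO library inside the WT range. With Gm28438 added these became 392, 477, 472 and 536 CPM in WT and 759, 689.8, 759 and 758 in KO, and the genotypes separated. As deposited the log2 difference was 0.60 (SE 0.25) on SFA, 1.30 (SE 0.26) on n6 and 0.50 (SE 0.25) on n3 (edgeR, adjusted p = 0.0602, 3.32e-04 and 0.116). With the copy added it was 0.66 (SE 0.08) on SFA, 1.02 (SE 0.08) on n6 and 0.75 (SE 0.08) on n3 (edgeR, adjusted p = 9.28e-07, 1.23e-09 and 2.24e-07). The deposited call on SFA appeared when replicate 1 of KO was left out (edgeR, adjusted p = 0.0170) and that on n3 when replicate 4 of KO was left out (edgeR, adjusted p = 0.0295). mt-Nd4l (chrM:9877-10173), with a smaller share on its copy, rose by 0.82, 1.07 and 0.70 as deposited and by 0.72, 1.04 and 0.66 with it, and was called on all 3 diets either way.

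mt-Cytb (chrM:14145-15288), the subunit of complex III that carries its b-type hemes, has no copy above the identity limit. On SFA it stood at 5160.4, 6051, 6099.8 and 6948 CPM in WT and 9450.3, 8806, 10200.4 and 9342 in KO. On n6 it stood at 3468, 3986, 3775 and 4386 CPM in WT and 7354, 8435, 8092 and 7795 in KO. On n3 it stood at 5757, 5482, 5785 and 6029 CPM in WT and 9221, 9255, 10933 and 7837 in KO. No KO library reached down into the WT range of its diet. The log2 difference was 0.64 (SE 0.09) on SFA, 1.02 (SE 0.09) on n6 and 0.69 (SE 0.09) on n3 (edgeR, adjusted p = 4.93e-06, 4.60e-09 and 2.31e-06).

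Of the 3 mitochondrial subunits of complex IV, mt-Co1 (chrM:5328-6872), which holds the site where oxygen is reduced, took the most counts of all 13 genes. On SFA it had 13908, 16367, 16386 and 18261 CPM in WT and 23638, 22119, 26223 and 23262 in KO. On n6 it had 10136, 11359.8, 10976 and 12291 CPM in WT and 20835, 21932, 21070.0 and 21767 in KO. On n3 it had 15741, 15580.2, 15848 and 16928 CPM in WT and 24689, 25802, 28615 and 21866 in KO. All KO libraries exceeded all WT libraries of their diet. The log2 difference was 0.55 (SE 0.08) on SFA, 0.94 (SE 0.08) on n6 and 0.66 (SE 0.08) on n3 (edgeR, adjusted p = 7.81e-06, 3.12e-09 and 1.04e-06).

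mt-Co2 (chrM:7013-7696), whose copper centre accepts electrons from cytochrome c, had the largest part of its reads on a copy. As deposited it had 41.8, 90.7, 104 and 157 CPM in WT and 109, 132, 133 and 127 in KO on SFA, a spread within WT wider than the gap between genotypes. With Gm28661 added it had 3883, 4520.5, 4588 and 4976 CPM in WT and 7198, 6739, 7643 and 6862 in KO, and the genotypes no longer overlapped. On n6 the values with the copy were 2812, 3142, 3084 and 3415 in WT and 5599.8, 5921, 5721 and 5950.1 in KO, and on n3 4157, 4203, 4424 and 4532 in WT and 6807, 6734, 7870.0 and 5883 in KO. The gene and its copy together were thus higher in every KO library on each diet. The deposited log2 difference was 0.35 (SE 0.28) on SFA, 0.86 (SE 0.28) on n6 and 0.68 (SE 0.28) on n3 (edgeR, adjusted p = 0.346, 0.0198 and 0.0612), and that of the copy alone was 0.67, 0.89 and 0.67. Together the log2 difference was 0.66 (SE 0.08) on SFA, 0.90 (SE 0.08) on n6 and 0.66 (SE 0.08) on n3 (edgeR, adjusted p = 3.61e-07, 3.24e-09 and 6.21e-07). The deposited call on n6 was lost without WT n6 replicate 1 (edgeR, adjusted p = 0.0564), without WT n6 replicate 4 (adjusted p = 0.05999) and without the libraries high in muscle or B cell markers (adjusted p = 0.0945), and a call appeared on n3 without KO n3 replicate 1 (edgeR, adjusted p = 0.0332) or replicate 4 (adjusted p = 0.0401). Among other settings, the n6 call was lost by limma on log2(TPM + 1) with no filter (adjusted p = 0.0575), and a call appeared on n3 with DESeq2 (adjusted p = 0.0334) and in edgeR with only the groups compared (adjusted p = 0.0380).

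mt-Co3 (chrM:8607-9390), the third core subunit, had 236, 452, 437 and 415 CPM in WT and 431, 452, 647 and 612 in KO on n3 as deposited. With Gm28437 added it had 4062, 4100.4, 4162 and 4342 CPM in WT and 6808, 6846, 7872 and 5808 in KO. The deposited values overlapped on n3, and the summed values did not. As deposited the log2 difference was 1.11 (SE 0.24) on SFA, 1.17 (SE 0.24) on n6 and 0.48 (SE 0.24) on n3 (edgeR, adjusted p = 0.00108, 5.93e-04 and 0.129). With the copy it was 0.61 (SE 0.09) on SFA, 0.97 (SE 0.09) on n6 and 0.71 (SE 0.09) on n3 (edgeR, adjusted p = 4.70e-06, 4.78e-09 and 8.49e-07), so the difference on SFA was smaller and that on n3 larger than in the deposited values.

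The ATP synthase has 2 mitochondrial subunits. mt-Atp8 (chrM:7766-7969), a small subunit of the membrane part with no near-identical copy, ranged over 514 to 657 CPM in WT and 960.1 to 1064 in KO on SFA, 347 to 467 and 677 to 832 on n6, then 533 to 661 and 779 to 1137 on n3. The genotypes did not overlap, and the log2 difference was 0.75 (SE 0.11) on SFA, 0.98 (SE 0.11) on n6 and 0.75 (SE 0.11) on n3 (edgeR, adjusted p = 8.24e-06, 2.06e-07 and 1.07e-05). mt-Atp6 (chrM:7927-8607), which lines the proton path, had 153, 208, 154 and 161 CPM in WT and 309, 195, 308 and 209.6 in KO on SFA as deposited. With Gm10925 added it had 3603, 4198, 4320.3 and 4771 CPM in WT and 6752, 6135, 7082 and 6482 in KO. Only the summed values separated the genotypes on this diet. Its log2 difference was 0.60, 1.05 and 0.54 on SFA, n6 and n3 as deposited, called on each (edgeR, adjusted p = 0.0118, 7.95e-05 and 0.0219), and 0.65, 0.94 and 0.66 with the copy (edgeR, adjusted p = 1.32e-06, 4.69e-09 and 1.32e-06). The deposited calls were lost without KO SFA replicate 3 (edgeR, adjusted p = 0.0504) on SFA, and without KO n3 replicate 3 (edgeR, adjusted p = 0.0706) or WT n3 replicate 2 (adjusted p = 0.0769) on n3. They were also lost on both diets by limma on log2(TPM + 1) (adjusted p = 0.0505 on SFA and 0.104 on n3), on log2(TPM + 0.1) (adjusted p = 0.0504 and 0.104) and with no filter on TPM (adjusted p = 0.0886 and 0.172). With TPM rescaled without the mitochondrial genes, limma gave no call on n3 (adjusted p = 0.0655).

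Copies added, the values were also read by complex. The median log2 difference of the 7 genes of complex I was 0.66, 1.02 and 0.66 on SFA, n6 and n3. It was 0.64, 1.02 and 0.68 for mt-Cytb of complex III, 0.61, 0.94 and 0.66 for the 3 genes of complex IV, and 0.70, 0.96 and 0.70 for the 2 genes of the ATP synthase. Without the 3 libraries high in muscle or B cell markers, 12, 13 and 13 of 13 genes were called higher with copies added, and 10, 12 and 10 as deposited.

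Levels between genes can be compared only per length, in TPM. With copies added, the order over the 24 libraries was led by mt-Atp8 with a mean of 24712 TPM (group means 15963 to 31722), mt-Co1 with 23816 (16452 to 28911), mt-Co2 with 20624 (14276 to 25588) and mt-Atp6 with 19147 (12806 to 23954). mt-Nd4l (18306) and mt-Co3 (16158) followed, then mt-Cytb (12934), mt-Nd2 (12227), mt-Nd1 (12146) and mt-Nd4 (10780.5). At the low end were mt-Nd3 (6620.0), mt-Nd5 (5104) and mt-Nd6 (817), the last with group means of 669 to 926 TPM. Neighbours from mt-Atp8 to mt-Co3 and from mt-Cytb to mt-Nd4 in this order differed by less than the spread of either gene over the 24 libraries (SD of 2249.9 to 5926 TPM), a spread that holds the difference between groups. The means of single groups kept this order with a few exceptions. In WT on n6 mt-Co1 (16452) lay above mt-Atp8 (15963). mt-Nd2 lay below mt-Nd1 in all 3 WT groups, also below mt-Nd4 on SFA (9389 against 9525) and n6 (6729 against 7213), and above mt-Cytb in all 3 KO groups (on SFA 16147 against 16044). As deposited, mt-Co2 was listed at 366 TPM and stood last. The level of mt-Atp8 rests on a short gene that shares 43 bases with mt-Atp6. That of mt-Nd4l likewise rests on a short gene, 297 bases long, that shares 7 bases with mt-Nd4.

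Beneath the common rise, the make-up of the mitochondrial RNA also differed between genotypes. The part of each gene in the summed counts of the 13 genes, with copies added, was compared within diets by an exact permutation test averaged over the 3 diets, with p adjusted over the 13 genes. mt-Nd2 made up 7.47 to 7.78% of these counts in WT and 9.003 to 9.72% in KO on SFA. On n6 it made up 6.75 to 7.49% in WT and 8.83 to 9.69% in KO, and on n3 8.005 to 8.21% and 8.84 to 9.75%. The genotypes did not overlap on any diet, and the mean went from 7.65% in WT to 9.36% in KO (adjusted p = 3.79e-05, exact permutation test). mt-Nd5 changed the other way, from 7.90% in WT to 7.09% in KO, again without overlap on any diet (adjusted p = 3.79e-05, exact permutation test).

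mt-Co1 went from 28.9% in WT to 27.8% in KO (adjusted p = 5.05e-05, exact permutation test) and overlapped only on n3. mt-Nd6 went from 0.228% in WT to 0.180% in KO (adjusted p = 7.58e-05, exact permutation test), also overlapping only on n3. mt-Nd1 went from 7.45% in WT to 7.88% in KO (adjusted p = 0.00126, exact permutation test). A small fall passed the test for mt-Nd4, from 11.2% in WT to 11.03% in KO (adjusted p = 0.00762, exact permutation test). The parts have a fixed sum in each library, so the gain of mt-Nd2 (1.71 points) lowers those of the other genes by arithmetic. How much of each fall this makes up was not tested. The other 7 genes did not pass, with mt-Co2 and mt-Nd3 just above the threshold (adjusted p = 0.05003 for each, exact permutation test). Within a single diet, none of the 39 tests passed after adjustment, where the smallest adjusted value was 0.0696 (exact permutation test), so single diets are described by their ranges only. A smaller part of the mitochondrial counts is not a lower level: mt-Nd5 and mt-Co1 were higher in KO on every diet, and rose less than mt-Nd2.

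Per 1000 counts of the 12 plus-strand genes and the nuclear copies together, mt-Nd6 on the minus strand had 2.19, 2.47, 2.43 and 2.46 in WT and 1.74, 1.76, 1.73 and 1.81 in KO on SFA. On n6 it had 2.39, 2.63, 2.33 and 2.37 in WT and 1.72, 1.84, 1.77 and 1.75 in KO. On n3 it had 1.84, 2.004, 2.09 and 2.22 in WT and 1.94, 1.81, 1.87 and 1.86 in KO. Values were lower in every KO library on SFA and n6 and overlapped on n3. The difference averaged over diets was -0.485 per 1000 (exact permutation p within diets = 2.33e-05).

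**Figure D4:**
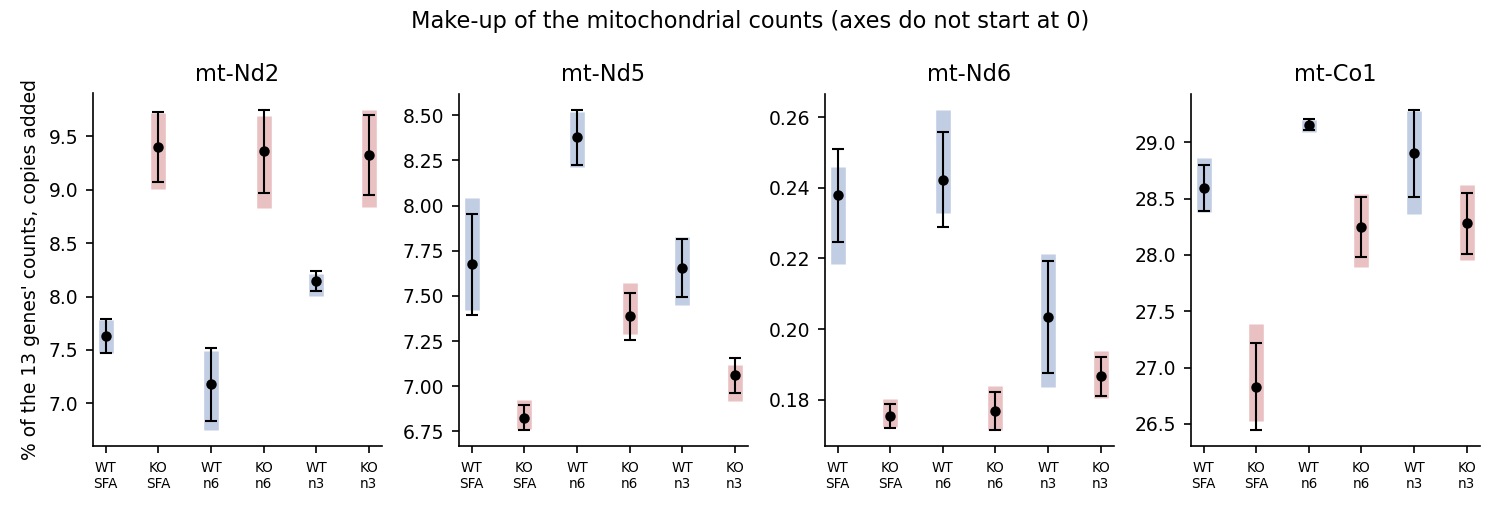
Part of mt-Nd2, mt-Nd5, mt-Nd6 and mt-Co1 in the summed counts of the 13 mitochondrial genes with copies added, in percent, in WT and KO on each diet. Points are means of 4 libraries with SD, shaded bars run from the lowest to the highest library, and axes do not start at 0. mt-Nd2 lies higher in KO on all 3 diets (mean 9.36% against 7.65%) and mt-Nd5 lower (7.09% against 7.90%).

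Whether the genotype difference depended on diet was tested directly. In the overall test, 1 of the 13 genes, mt-Nd2, had a genotype difference that was not the same on the 3 diets (edgeR, adjusted p = 0.00834), beside 6.44% of all tested genes. The gene passed this test in every alternative in which it was run. In addition, 8 of 13 genes had an unadjusted p under 0.05, and limma on log2(TPM + 1) called 7. The difference between KO and WT was larger on n6 than on n3 for mt-Nd2 (n3 minus n6 -0.49, SE 0.10), mt-Nd4l (-0.37, SE 0.11) and mt-Nd1 (-0.29, SE 0.09), with edgeR adjusted p of 0.00497, 0.0359 and 0.0466, beside 4.62% of all genes called in that direction. With copies added mt-Nd4 joined them (-0.35, edgeR adjusted p = 0.0437, 5.18% of all genes). Between n6 and SFA the difference was larger on n6 for mt-Nd2 alone (0.42, SE 0.10, edgeR adjusted p = 0.0367, 0.465% of all genes). Between n3 and SFA edgeR called 0 of 13 (1 with an unadjusted p under 0.05; DESeq2 called 0 and limma 0), beside 0.819% of all genes.

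Of the pairwise calls as deposited, only the n3 minus n6 call of mt-Nd2 held whichever single library was left out. Without the 3 libraries high in muscle or B cell markers, the n3 minus n6 difference of mt-Nd2 was called. Not called were mt-Nd1 (-0.34, edgeR adjusted p = 0.0734), mt-Nd4l (-0.38, adjusted p = 0.0883) and the n6 minus SFA difference of mt-Nd2 (0.44, adjusted p = 0.125). These 3 estimates were no smaller in size than with all libraries, and fewer libraries were compared. With only the groups compared, mt-Nd1 (adjusted p = 0.0504) and that n6 minus SFA difference (adjusted p = 0.0577) were not called by edgeR either. The n6 minus SFA call of mt-Nd2 was also lost on leaving out any 1 of 11 libraries, WT SFA replicates 2, 3 and 4, KO SFA 1 and 2, WT n6 1, 2 and 3, and KO n6 1, 2 and 4 (adjusted p 0.0521 to 0.0822). The call of mt-Nd1 was lost without any 1 of 12, WT n6 1, 2 and 3, KO n6 1 to 4, WT n3 3 and 4, and KO n3 1, 2 and 4 (adjusted p 0.0504 to 0.0850). That of mt-Nd4l was lost without any 1 of 6, WT n6 1, KO n6 2 and 4, WT n3 1 and 4, and KO n3 1 (adjusted p 0.0513 to 0.0706). In the overall test, leaving out WT SFA replicate 1 gave 7 called genes, WT n6 replicate 4 gave 5, and KO n3 replicate 3 or 4 gave 3.

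Within WT, diet itself went with the level. On n6, 11 of 13 genes were lower than on SFA, beside 13.1% of all genes, and with copies added all 13 were, beside 14.2%, by -0.44 for mt-Nd5 to -0.69 for mt-Nd3 on the log2 scale. On n3, 10 of 13 were higher than on n6, beside 9.82% of all genes, and 12 with copies, beside 10.2%, where mt-Nd6 did not pass (0.28, edgeR adjusted p = 0.0551). With copies added mt-Nd2 had the widest difference between n3 and n6, while as deposited that of mt-Nd3 was wider (0.84, SE 0.25, edgeR adjusted p = 0.0264). mt-Nd2 had 2579, 2750.1, 2828 and 2847 CPM on n6 and 4444, 4262, 4588 and 4787 on n3 (0.72, SE 0.07). Between n3 and SFA edgeR called 0 of 13 genes in WT, with differences of -0.27 to 0.06 once copies were added, beside 0.144% of all genes (1 with an unadjusted p under 0.05; DESeq2 called 0 and limma 0). The share of counts followed the same order, -1.17 points for n6 minus SFA and 1.26 for n3 minus n6 (exact permutation test, adjusted p = 0.0429 for each), against 0.0929 for n3 minus SFA (exact permutation p = 0.743).

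Within KO the diets were compared in the same way. On n6, 6 of 13 genes were lower than on SFA, beside 13.8% of all genes, and 10 with copies, beside 14.3%, with a median of -0.25. On n3, 7 were higher than on n6, beside 15.8% of all genes, and 9 with copies, beside 13.5%, with a median of 0.23. These counts moved with single libraries. Without the 2 KO n6 libraries high in muscle or B cell markers (and the WT SFA one), the deposited counts were 1 and 0, and with copies added 0 and 0. Leaving out KO SFA replicate 3 took the n6 to SFA count to 3. Leaving out KO n3 replicate 3 took the n3 to n6 count to 0, KO n3 replicate 2 or KO n6 replicate 1 took it to 3, and KO n3 replicate 1 or KO n6 replicate 2 or 3 took it to 4.

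Between n3 and SFA in KO edgeR called 0 of 13 genes, with differences of -0.08 to 0.08 once copies were added, beside 1.46% of all genes (0 with an unadjusted p under 0.05; DESeq2 called 0 and limma 0). The share of counts in KO differed by -0.419 points for n6 minus SFA (exact permutation test, adjusted p = 0.0429), 0.543 for n3 minus n6 (exact permutation p = 0.0857, adjusted p = 0.110) and 0.125 for n3 minus SFA (exact permutation p = 0.657). Across the 6 groups the order of the mean share was WT n6, WT SFA, WT n3, KO n6, KO SFA and KO n3, where WT on SFA overlapped with WT on n3, KO on SFA overlapped with KO on n3, and the other neighbours did not overlap.

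The nuclear genes for the same 4 complexes moved in the same direction by smaller amounts. Of 71 nuclear subunits tested, 51 were higher and 1 lower in KO on SFA, 64 and 1 on n6, then 70 and 0 on n3. Among all tested genes 20%, 21% and 20.1% were called higher on these diets and 19.9%, 22.1% and 18.7% lower. Their median log2 difference was 0.24, 0.37 and 0.44, beside 0.64, 1.02 and 0.66 for the mitochondrial genes and the medians near 0 over all tested genes given above. Averaged over the diets, the median was 0.33 for 36 subunits of complex I, 0.45 for 9 of complex III, 0.40 for 11 of complex IV and 0.31 for 15 of the ATP synthase. Ndufa10, an accessory subunit of complex I, rose by 0.51, 0.65 and 0.59 on the SFA, n6 and n3 diets, Ndufs1, its subunit with several iron-sulfur clusters, by 0.41, 0.53 and 0.45, and Uqcrc2, a core protein of complex III, by 0.41, 0.57 and 0.54 (edgeR, adjusted p of the average at most 2.15e-12). The single subunit that fell was Atp5g1, a gene for the ATP synthase c-ring named here after its values were seen, at -0.24 on SFA and -0.20 on n6.

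Complex II, which has no mitochondrially encoded subunit, rose as well. All 4 of its genes were higher in KO on each diet, beside the 20%, 21% and 20.1% of all tested genes, with medians of 0.28, 0.40 and 0.46. Sdha, its flavoprotein, rose by 0.36, 0.58 and 0.49, Sdhb, its iron-sulfur protein, by 0.22, 0.42 and 0.46, and Sdhd, a membrane anchor, by 0.33, 0.39 and 0.46. In WT on n6 against SFA the direction was the opposite, with 69 of 71 nuclear subunits and 4 of 4 of complex II lower. Of all tested genes 13.1% were called lower there.

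The balance between transcripts of the 2 genomes differed as well. With the nuclear copies added to the 13 mitochondrial genes, the ratio of their counts to the counts of the 71 nuclear subunits was 6.46, 6.98, 7.08 and 7.43 in WT and 9.31, 9.39, 9.26 and 8.61 in KO on SFA. On n6 it was 5.24, 5.58, 5.79 and 5.999 in WT and 8.26, 8.55, 8.44 and 8.69 in KO. On n3 it was 7.04, 6.64, 7.33 and 7.52 in WT and 8.51, 8.20, 8.90 and 8.32 in KO. The genotypes did not overlap on any diet. Each diet's p was the smallest possible (0.0286, exact permutation test) and was 0.0514 after adjustment over 9 comparisons. The difference averaged over diets was 2.11 (exact permutation p within diets = 5.83e-06), and 2.15 without the 3 libraries high in muscle or B cell markers (exact permutation p = 2.72e-05). The nuclear subunits themselves took 0.822% of counts in WT and 0.896% in KO on SFA, 0.745% and 0.889% on n6, then 0.816% and 0.979% on n3.

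**Figure D5:**
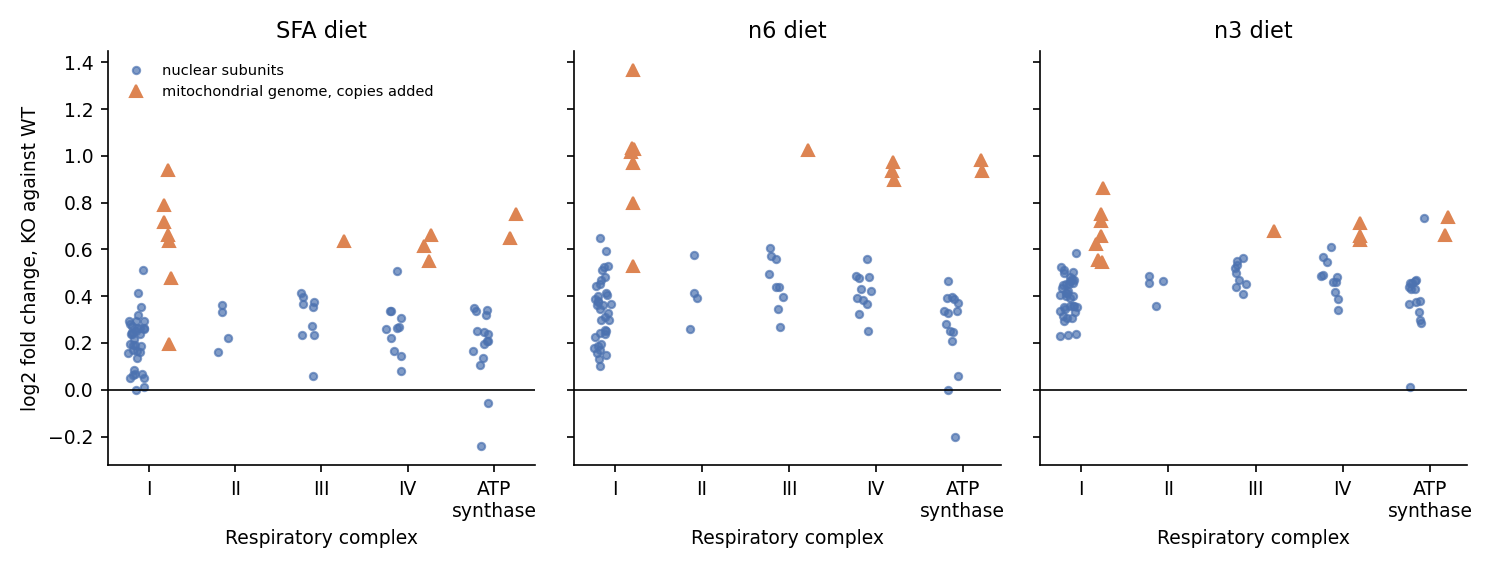
Log2 difference between KO and WT on each diet for the mitochondrial genes with copies added and for nuclear subunits of the same complexes, by complex. Each point is 1 gene, and the sideways spread of points is for display only. On n6 the median is 0.97 for the 13 mitochondrial genes and 0.37 for the 71 nuclear subunits.

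The nuclear genes that express and keep the mitochondrial genome were read by role. Of 37 tested, 20 were higher and 3 lower in KO on SFA, 23 and 2 on n6, then 24 and 0 on n3, with medians of 0.16, 0.21 and 0.23. Among all tested genes 20%, 21% and 20.1% were called higher and 19.9%, 22.1% and 18.7% lower. In the average over diets, 7 of 9 transcription factors and polymerase genes and 15 of 16 genes for RNA processing and decay were higher and none lower. Of 12 genes for replication and maintenance, 6 were higher and 3 lower. In this average 27.8% of all tested genes were called higher and 29.8% lower. Tfam, which packs and helps transcribe the mitochondrial chromosome, rose by 0.22, 0.28 and 0.27 on the SFA, n6 and n3 diets, and Polrmt, the mitochondrial RNA polymerase, by 0.29, 0.26 and 0.24. Lrpprc, which stabilises mitochondrial messages, rose by 0.41, 0.52 and 0.47, and Rexo2, an exonuclease for short RNA, by 0.38, 0.28 and 0.43 (edgeR, adjusted p of the average at most 7.07e-08 for these 4). Slirp, the partner of Lrpprc, differed by 0.03, 0.06 and 0.23 and among single diets was called only on n3 (edgeR, adjusted p = 0.738, 0.564 and 0.0141). The 3 genes that were lower in the average were Rrm2b (-0.20) and Tk2 (-0.13), which supply nucleotides, and the topoisomerase gene Top1mt (-0.13), named after their values were seen.

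Of 7 nuclear regulators of mitochondrial content, 4, 6 and 3 were higher in KO on the SFA, n6 and n3 diets, and none was lower. Of all tested genes 20%, 21% and 20.1% were called higher. Ppargc1a, the coactivator PGC-1 alpha, ranged over 5.25 to 7.13 CPM in WT and 9.74 to 11.8 in KO on SFA, 3.76 to 6.21 and 7.18 to 8.83 on n6, then 4.94 to 7.29 and 9.04 to 11.5 on n3. It rose by 0.73, 0.74 and 0.76, its relative Ppargc1b by 0.70, 0.49 and 0.58, and Esrra, a nuclear receptor that works with them, by 0.46, 0.42 and 0.46 (edgeR, adjusted p of the average at most 1.47e-06). Ppargc1a also stands among the 9 brown fat markers.

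Markers of other cell types moved with the genotype beside these results. Of 9 markers of brown and beige fat cells, 8, 9 and 7 were higher in KO on SFA, n6 and n3. Among all tested genes 20%, 21% and 20.1% were. Their summed level was 227 to 263 CPM in WT and 352 to 412 in KO on SFA, 186 to 213 and 432 to 493 on n6, then 235 to 324 and 381 to 508 on n3, most of it Pdk4, a kinase that other cells also express. Ucp1, the defining gene of heat-making fat cells, stayed between 0.0197 and 1.16 CPM in all 24 libraries. Of 11 macrophage markers, 10, 9 and 6 were lower in KO, where 19.9%, 22.1% and 18.7% of all tested genes were, with summed levels of 1281 to 1487 CPM in WT and 691 to 965 in KO on SFA, 1435 to 2118 and 983 to 1371 on n6, then 1362 to 1654 and 905 to 1258 on n3. Of 8 stromal markers, 8, 6 and 1 were lower, with summed levels of 6854 to 7191 and 3172 to 5179 CPM, 7588 to 8925 and 4953 to 6257, and 6251 to 7657 and 4768 to 6709. The 10 fat cell markers summed to 39236 to 40989 and 35472 to 38486 CPM on SFA, 38205 to 40237 and 35522 to 37481 on n6, then 37740.3 to 40856 and 35557 to 41572 on n3. Their mean log2 CPM, which weighs all 10 alike, was lower in KO without overlap on each diet. It was 11.12 to 11.20 in WT and 10.55 to 10.76 in KO on SFA. On n6 it was 11.03 to 11.18 and 10.65 to 10.80, and on n3 11.01 to 11.15 and 10.70 to 10.90. The 10 markers did not vary alike. Over the 24 libraries Cfd ran from 79.4 to 1322 CPM, beside 151 to 188 for Pparg and 11323 to 13099 for Lpl. How far single markers carry the lower mean in KO was not tested. On n6, 3 of 14 muscle markers were higher in KO, near the 21% of all tested genes, and so were 6 of 9 B cell markers. Muscle markers summed to 37.4 to 103 CPM in WT and 18.8 to 430.0 in KO, with the 430.0 in replicate 1 of KO. B cell markers summed to 5.09 to 6.19 and 6.08 to 53.5 CPM. Mammary epithelium markers, of which 5 of 7 tested were higher in KO on n3 (beside 20.1% of all tested genes), summed to 6.93 CPM or less in every library. The part of these cell types in the mitochondrial result was not tested.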

How the data were processed

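Poly-A RNA-seq libraries of mouse iWAT, 4 in each of 6 genotype and diet groups, were read from 2 deposited tables of the whole series. The submitters' processing notes list fastp 0.23.2, a read trimmer, Salmon, which assigns reads to transcripts, and the build mm10. For Salmon, no version, option, annotation or strand setting is given in the sources used here. The first table holds the estimated counts per gene that the authors deposited, and the second the TPM per gene that the authors deposited, scaled for gene length and to a fixed sum. Columns were matched to samples by the names in the labels, and 0 columns belonged to other samples. TPM names were checked by position, and 34399 of 35727 symbols in GENCODE M21 equalled the count name in the same place. The mitochondrial genes, the gene lists and the tests were chosen with earlier results of these data known.

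Counts were rounded and tested in R 4.3.3 with edgeR 4.0.16 (genes kept by a minimum count of 10 and a minimum total of 15, 15259 genes, TMM factors, robust quasi-likelihood test over all 24 libraries, 18 residual degrees of freedom). P-values were adjusted over all tested genes (Benjamini-Hochberg, threshold 0.05). The share of counts was compared by two-sided exact permutation tests, adjusted over 9 comparisons, where 4 libraries against 4 cannot go below p = 0.0286, and averages over diets by permutation within diets. Nuclear copies were annotated transcripts that aligned to a member (blastn of BLAST+ 2.17.0) at 95% identity or more over 100 bases or more. Promoter and protein sequences were not used here. Named genes were all 13 members, Lpcat3, the 3 genes of each nuclear list with the smallest p in the average over diets, Tfam, Polrmt, Lrpprc, Slirp, and the copies that held over 1% of the reads of their gene.

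Results were recomputed with DESeq2 1.42.0, DESeq2's size factors (RLE) in edgeR, no filter on low counts (23565 genes), only the groups compared, the replicate number as a block, limma 3.58.1 on log2(TPM + 1) and log2(TPM + 0.1), no filter on TPM (23624 genes), mitochondrial genes left out of library sizes or of the TPM total, copies added, other denominators of the share, and each library left out in turn. Alternatives chosen after seeing the data were those without the copies in the totals and without libraries with a mean log2 CPM above 2 over B cell markers or above 4 over muscle markers. DESeq2 was not run for the overall test of genotype by diet. The statistical scripts were tested on simulated data. Python 3.11.15, SciPy 1.17.1, pandas 2.3.3, NumPy 2.4.6 and matplotlib 3.10.9 were used for the remaining steps.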

Additional observations from a re-analysis of the deposited data

Results flagged for a closer look

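The 13 genes and their summed share in 6 groups make 84 sets of 4 libraries. In 7 of them, all of single genes, 1 library lay far from the other 3 relative to the range of the group, as deposited and in CPM. Chance alone gives this in about 1 in 20 sets. mt-Atp6 had 208 in replicate 2 of WT on SFA (the others 153 to 161) and 162 in replicate 2 of WT on n3 (the others 211 to 217). mt-Co3 had 236 in replicate 1 of WT on n3 (the others 415 to 452), and mt-Nd3 had 35.3 in replicate 1 of WT on SFA (the others 47.4 to 49.8). These 3 genes have most of their reads on a nuclear copy. mt-Nd4l had 1188 in replicate 3 of KO on SFA (the others 1022 to 1043). mt-Atp8 had 677 in replicate 3 of KO on n6 (the others 806 to 832), and mt-Nd5 had 5321 in replicate 1 of KO on n6 (the others 5673 to 5721), the library that also held the most muscle marker counts.

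The difference between KO and WT itself differed between diets for 3 genes by the edgeR interaction test. For mt-Nd2 it was larger on n6 than on SFA by 0.42 on the log2 scale (adjusted p = 0.0367), and the n3 value minus the n6 value was -0.49 (adjusted p = 0.00497). The same n3 minus n6 value was -0.29 for mt-Nd1 (adjusted p = 0.0466) and -0.37 for mt-Nd4l (adjusted p = 0.0359).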

How the results depend on the processing

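No value of the share, or of a gene called in the main test, reversed its direction where it was called. Outside these, the n6 minus SFA value of mt-Atp6 in KO was 0.0005 as deposited, not called, and -0.32 with copies added (edgeR, adjusted p = 0.00902). Over alternatives other than leaving out 1 library, 1226 values of single genes kept their direction and side of the threshold, 112 lost a call and 12 gained one. Over the sets without 1 library, these numbers were 902, 77 and 5. Both tallies took in every mitochondrial gene for the genotype differences, but for diet and interaction only genes called in the main test. Calls that other genes gained there are not in these numbers. The counts of genes called higher in KO stayed within 1.5 times on each diet in all alternatives.

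Diet counts within KO moved most. Lower on n6 than on SFA, with 6 genes in the main test, were 3 by limma on log2(TPM + 1), on log2(TPM + 0.1) and on both rescaled TPM totals, 1 on log2(TPM + 1) with no filter, 10 with copies added, 1 without the 3 libraries high in muscle or B cell markers, and 0 with copies added and those libraries out. Higher on n3 than on n6, with 7 in the main test, were 0 by limma in all 5 TPM settings, 4 with no filter on counts, 2 with only the groups compared, 0 without the 3 libraries, and 0 with copies added as well.

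Interaction counts moved too. For n6 minus SFA, 1 gene in the main test became 3 by DESeq2, 3 by limma on log2(TPM + 1), 2 in the other 4 TPM settings, and 0 with only the groups compared, without the 3 libraries, and with copies added as well. For n3 minus n6, 3 genes became 7 in 4 TPM settings and 6 in that with no filter, and 1 without the 3 libraries with or without copies added. In the overall test, 1 gene became 7 in 4 TPM settings and 5 in that with no filter. The cause was not tested.

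The share of counts kept its direction but not its calls with a replicate block and without the 3 libraries high in muscle or B cell markers. With the replicate block (exact sign-flip test of same-numbered libraries, smallest p 0.125), the share differed by 1.88, 2.63 and 1.91 points between genotypes on SFA, n6 and n3, and by -1.17 (WT, n6 minus SFA), 1.26 (WT, n3 minus n6) and -0.419 (KO, n6 minus SFA). Same-numbered libraries correlated between -0.269 and 0.352, and in no comparison were all pairs over 0.1. The labels do not say what the number marks, and these correlations cannot decide whether same-numbered libraries are paired. The block in edgeR changed no count of called genes by over 1.5 times. Without the 3 libraries, where 3 against 4 cannot go below p = 0.0571 (exact permutation test), these 6 differences were 1.92, 2.67, 1.91, -1.13, 1.26 and -0.377.

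Leaving out 1 library at a time, the genes called higher in KO were 9 to 11 on SFA, 12 to 13 on n6 and 9 to 12 on n3. In WT 10 to 11 were called for n6 against SFA and 9 to 11 for n3 against n6, and in KO 3 to 6 and 0 to 9. Interaction counts were 0 to 3 (n6 minus SFA), 1 to 6 (n3 minus n6) and 1 to 7 (overall test). The share differed between genotypes by 1.69 to 2.02 points on SFA, 2.54 to 2.74 on n6 and 1.72 to 2.08 on n3, in WT by -1.36 to -1.03 (n6 minus SFA) and 1.17 to 1.37 (n3 minus n6), and in KO by -0.495 to -0.293 (n6 minus SFA). Each of these share differences lost its call whichever library of its groups was left out (exact permutation test, adjusted p up to 0.0857). There 3 against 4 cannot go below p = 0.0571 (exact permutation test). All 13 genes passed the filter on low counts, and the split of reads between genes and copies cannot be recovered from these tables.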
